A study of Mus musculus with 2 samples.

Results

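Venular endothelial cells, the cells that line the small veins into which capillaries drain, were taken from single-cell RNA sequencing of mouse knee synovium, the soft tissue that lines the joint. A cell barcode was kept with at least 1000 unique molecular identifiers (UMIs, each standing for 1 captured RNA molecule), 500 or more genes detected and no more than 10% of UMIs from mitochondrial genes. It was called venular with at least 1 UMI of the endothelial genes Cdh5 and Pecam1 together, at least 2 of Selp and Vwf together, at most 1 of the arterial genes Sema3g, Gja4 and Stmn2 together, none of the leukocyte gene Ptprc or the lymphatic gene Prox1, and under 0.5% of its UMIs from the collagen genes Col1a1, Col1a2 and Col3a1. In all, 191 of 10946 kept cells met the rule, 42 of 7075 in the control library and 149 of 3871 in the library labelled MMS. Measured Selp and Vwf counts chose the cells, so their levels, and every difference of these cells from other cells, are descriptions.

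Both libraries came from wild-type mice. Each was made from cells pooled from 20 knees, freed from the tissue with Liberase TL and DNase and captured with a droplet kit that counts the 3' ends of RNA. The MMS library carries the label of day 14; the labels used here do not spell out MMS and give no day for the control, and the age and number of the animals are not given. With 1 library per group there was no replicate, no test between groups was made, and intervals below cover counting error only. A condition and a library therefore cannot be told apart anywhere in these results.

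Post-capillary venules are the main place where leukocytes leave the blood. Their endothelium stores P-selectin (Selp) and von Willebrand factor (Vwf) together in Weibel-Palade bodies, granules that fuse with the surface within minutes of a stimulus, and after inflammatory signals it makes E-selectin (Sele), Icam1 and Vcam1, to which rolling and arresting leukocytes bind. Plvap forms the diaphragms of endothelial fenestrae and caveolae, Slco2a1 carries prostaglandins into the cell, Lrg1 is a secreted glycoprotein that modulates TGF-beta signalling, and Ackr1 binds chemokines without signalling and moves them across the venular wall.

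The selectin genes Selp and Sele lie near each other on mouse chromosome 1. The stretch before each start is shown because both were rare in capillary-type cells (defined below), Selp by the rule and Sele without being part of it. The gene models are Selp at chr1:164115264-164150026 and Sele at chr1:164048234-164057677, both on the plus strand of GRCm38. The sequences are the 250 bases before each RefSeq start (GRCm38.p6, plus strand, 5' to 3'; Selp chr1:164115014-164115263, Sele chr1:164047984-164048233), and neither overlaps an annotated exon. Capitals mark matches to 2 of 4 motifs searched on both strands, AGGAAG of ETS factors and TTCNNNGAA of STAT factors.
Selp: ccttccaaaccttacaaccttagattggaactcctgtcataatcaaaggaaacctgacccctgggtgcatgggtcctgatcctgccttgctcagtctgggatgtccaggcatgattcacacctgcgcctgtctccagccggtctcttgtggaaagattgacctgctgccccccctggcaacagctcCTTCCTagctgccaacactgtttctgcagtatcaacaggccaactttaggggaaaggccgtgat
Sele: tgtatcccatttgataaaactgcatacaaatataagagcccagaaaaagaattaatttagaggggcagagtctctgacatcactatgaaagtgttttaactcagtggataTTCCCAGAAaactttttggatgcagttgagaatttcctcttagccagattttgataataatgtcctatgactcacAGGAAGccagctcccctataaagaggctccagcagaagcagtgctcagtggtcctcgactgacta

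The ETS match began 64 bases before the start of Selp and 65 before that of Sele. The STAT match of Sele began 140 bases before its start. Among the other venular genes with a RefSeq promoter in hand, Lrg1 and Ackr1 each held 3 ETS matches and Slco2a1 held 1; annotated exons overlap those windows, so their letters are not shown. Of 32851 RefSeq promoters of the same length, 29.5% held the ETS letters and 7.02% the STAT letters. The other motifs, an NF-kB consensus held by 4.11% of promoters and the letters AGATAA held by 9.99%, had no match in the 5 windows, which says only that these letters are not there. A match is a description of the sequence and not a binding site.

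Kept cells had a median of 11173 UMIs in the control library and 17752 in the MMS library, with summed totals of 81972996 and 81755601. Venular cells held 424141 and 1844202 UMIs in all. Their median depth was 9152 UMIs in control (2829 to 23594) and 10489 in MMS (1241 to 46052), their median number of genes was 3110.5 and 3477, and their median mitochondrial share was 3.71% and 4.31%. The libraries shared 6 barcodes, none of them venular. A doublet caller marked 184 kept control cells and 106 kept MMS cells; among venular cells it marked 0 and 3, which were not removed.

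Markers of other cells were present in the venular cells and differed between the libraries. The labels name the cell type of both samples as goblet cells. None of 8 goblet cell markers had a UMI in a venular cell. All 10 endothelial markers were detected, with sums of 8169 CPM in control and 10009 CPM in MMS (CPM, UMIs of a gene for every 1000000 UMIs of those cells). Cdh5 and Pecam1 of the rule are among the 10, so part of these sums was set by the rule. Fibroblast markers (11 of 11 detected) summed to 1521 CPM in control and 2855 in MMS, and 3 MMS cells held 4287 of their 5266 UMIs there. Mural cell markers (10 of 11 in control, with Cnn1 at 0, and 11 of 11 in MMS) summed to 1811 and 891 CPM. Platelet markers summed to 703 and 41.2 CPM, and 2 control cells with no Plvap UMI held 279 of their 298 UMIs. Macrophage markers (4 of 10 detected in control and 8 of 10 in MMS) summed to 108 and 38.0 CPM. Adgre1 was at 0 in both libraries, as was Ptprc, which the rule kept at 0. Neutrophil markers summed to 4.72 and 101 CPM with S100a8 and S100a9 at 0 in control. The part of these cells or of their free RNA in the results below was not tested except where a value without them is given.

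The venular label was checked against its markers that were not part of the rule. In control, Plvap was at 1949.8 CPM in venular cells (95% Poisson interval 1819 to 2087), against 159 in capillary-type cells and 245 in arterial-type cells of the same library. Capillary-type cells had at least 2 UMIs of Cdh5 and Pecam1 and at least 2 of Rgcc and Gpihbp1, and arterial-type cells at least 2 UMIs of the arterial genes; both had at most 1 UMI of Selp and Vwf. In MMS the same levels of Plvap were 2480.2 (2409 to 2553), 798 and 468 CPM. Lrg1 was at 667 CPM in venular against 20.7 in capillary-type control cells, and at 1574 against 171 in MMS. Slco2a1 stood at 160.3 against 11.8 and at 530.3 against 99.2 CPM. The distance to capillary-type cells was thus smaller in MMS for all 3, at log2 ratios of 3.62 and 1.64 for Plvap, 5.01 and 3.20 for Lrg1, and 3.76 and 2.42 for Slco2a1, in control and MMS in turn.

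Ackr1 and Sele had higher ratios over capillary-type cells than Plvap, Lrg1 and Slco2a1, though fewer venular cells held a UMI of them. Ackr1 was at 160.3 CPM in venular cells (124.5 to 203) and 1.10 in capillary-type cells in control, and at 442 (412 to 473) and 3.82 in MMS, log2 ratios of 7.18 and 6.86. Sele was at 87.2 CPM (61.4 to 120.2) and 0.16 in control, and at 137 (120.8 to 155) and 0.85 in MMS, log2 ratios of 9.11 and 7.34. Only 0.066% of control and 0.68% of MMS capillary-type cells had a Sele UMI, and control venular cells held 37. The size of its ratios therefore rests on few UMIs. Venous transcription factor Nr2f2 was at 318 CPM against 104 in control and 329.7 against 97.5 in MMS. In the other direction, Gpihbp1, which holds lipoprotein lipase at the capillary surface, was at 648 CPM in venular and 2756 in capillary-type control cells, and Car4, a carbonic anhydrase of capillaries, at 61.3 and 728; capillary-type cells were chosen on Gpihbp1 but not on Car4. The tight junction gene Cldn5 was at 502 CPM in venular and 2752 in capillary-type control cells, and at 251 and 1229 in MMS.

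**Figure D1:**
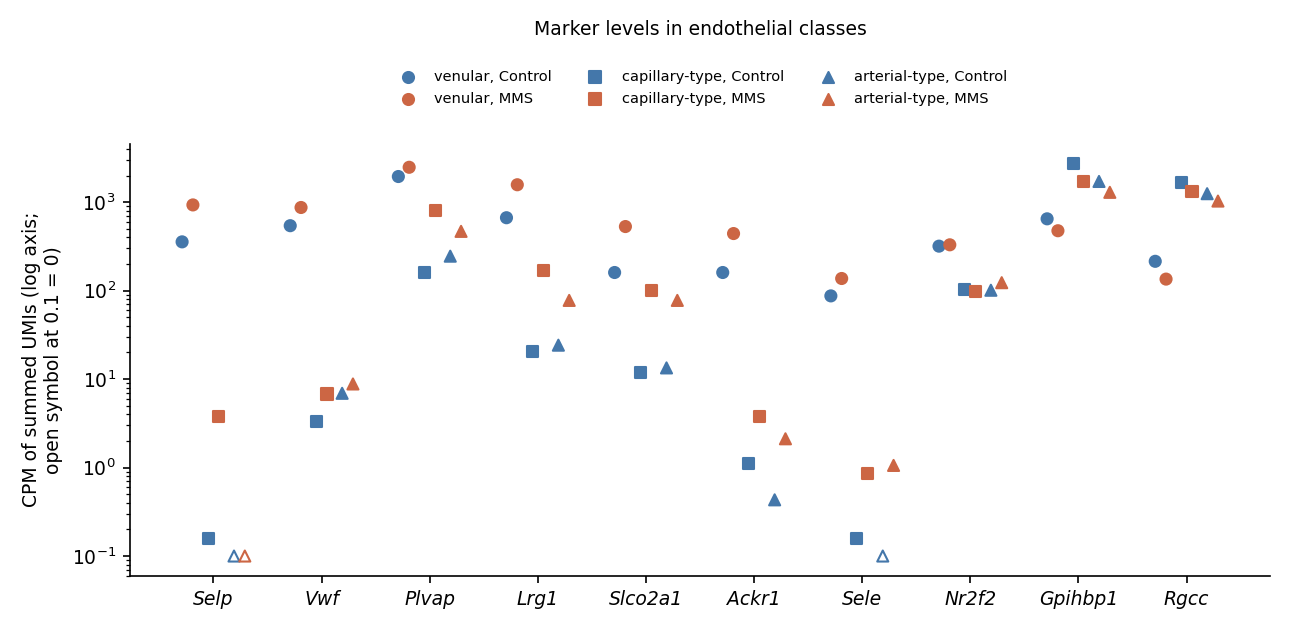
Summed level of 10 genes (CPM, log axis) in venular, capillary-type and arterial-type cells of each library; open symbols placed at 0.1 stand for 0. Each point is 1 class of cells in 1 library, with no replicate; Plvap, Lrg1, Slco2a1, Ackr1 and Sele are highest in the venular cells of both libraries and Gpihbp1 and Rgcc lowest there.

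Among genes with at least 10 UMIs over both classes, 715 of 11954 were at least 2-fold higher in venular than in capillary-type control cells with an interval on 1 side of equality (5.98%), and 460 of 11496 in MMS (4%); lower were 5.52% and 7.36%. In both libraries 268 of 11127 genes were higher (2.41%) and 235 lower (2.11%). Against arterial-type cells 4.05% of genes were higher and 6.76% lower in control and 4.38% and 11.6% in MMS, and 205 of 10687 were higher and 332 lower in both libraries. The 15 genes with the highest smaller ratio of both libraries, leaving out the genes of the rule, were Ackr1, Ctnnal1, Lepr, Vcam1, Syt15, Lrg1, Icam1, Itgb4, Chp2, Tagln, Bmp4, Nuak1, Spint2, Slco2a1 and Edn1. They include the leukocyte ligands Vcam1 (249.9 against 6.78 CPM in control, 144 against 14.8 in MMS) and Icam1 (332 against 40.4, and 459.8 against 56.0), the vasoconstrictor Edn1 (323 against 8.20, and 81.9 against 15.7) and the leptin receptor Lepr. Tagln is also one of the mural markers summed above. Shares of Vcam1, Icam1 and Lepr in cells rich in collagen RNA are given below. Of 15 venous identity genes, 9 were higher than in capillary-type cells in both libraries, of 22 Weibel-Palade and coagulation genes 7, and of 26 immediate early genes 9. Of 14 fatty acid handling genes, 8 were lower in both. These lists were chosen with results of these libraries known, and the cells were chosen on related genes, so the counts describe the class. The Weibel-Palade list also holds Selp and Vwf, on which both classes were chosen, so their part in its count was set by the rule.

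Single cells showed the same markers at a range of levels. In control, a venular cell held 0 to 106 UMIs of Plvap (median 14.5), 0 to 25 of Lrg1 (median 3.5), 0 to 6 of Slco2a1 (median 1) and 0 to 7 of Ackr1 (median 0.5). In MMS the ranges were 0 to 187 (median 25), 0 to 132 (median 14), 0 to 49 (median 3) and 0 to 60 (median 1). The cells of the libraries overlapped for each of the 4 genes. At least 1 UMI of Plvap was found in 95.2% of control and 98.0% of MMS venular cells, of Lrg1 in 85.7% and 95.3%, of Slco2a1 in 54.8% and 80.5%, of Ackr1 in 50% and 54.4% and of Sele in 26.2% and 47.0%.

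To set beside these shares, cells rich in collagen RNA with no Cdh5 or Pecam1 UMI were counted (2632 in control at a median depth of 13571.5 UMIs, 1261 in MMS at 26482). Sele had a UMI in none of them, which allows shares of cells with a UMI, not of cells expressing the gene, of up to 0.114% and 0.238%, and Selp in 0.076% and 0.56%. The other markers were found there more often, and free RNA and expression in those cells cannot be told apart. Plvap had a UMI in 29.1% and 44.2% of the collagen-rich cells, Slco2a1 in 38.9% and 15.2% and Ackr1 in 41.8% and 14.4%. Those cells held 76.3% of all Ackr1 UMIs of the control library and 19.7% of the MMS library, and venular cells 2.07% and 39.3%. For Slco2a1 the collagen-rich cells held 76.6% and 13.0% and venular cells 2.34% and 28.1%. Collagen-rich cells held 68.5% and 56.6% of Vcam1 UMIs, 55.0% and 36.4% of Icam1, 78.2% and 10.7% of Lepr and 74.2% and 81.7% of Nt5e. For the same genes in turn, venular cells held 3.86% and 6.57%, 1.05% and 12.2%, 4.99% and 40%, and 3.06% and 2.37%. Venular cells held 59.0% of the Selp and 61.7% of the Sele UMIs in control and 50.2% and 36.4% in MMS, with 0.517% and 2.26% of all UMIs.

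**Figure D2:**
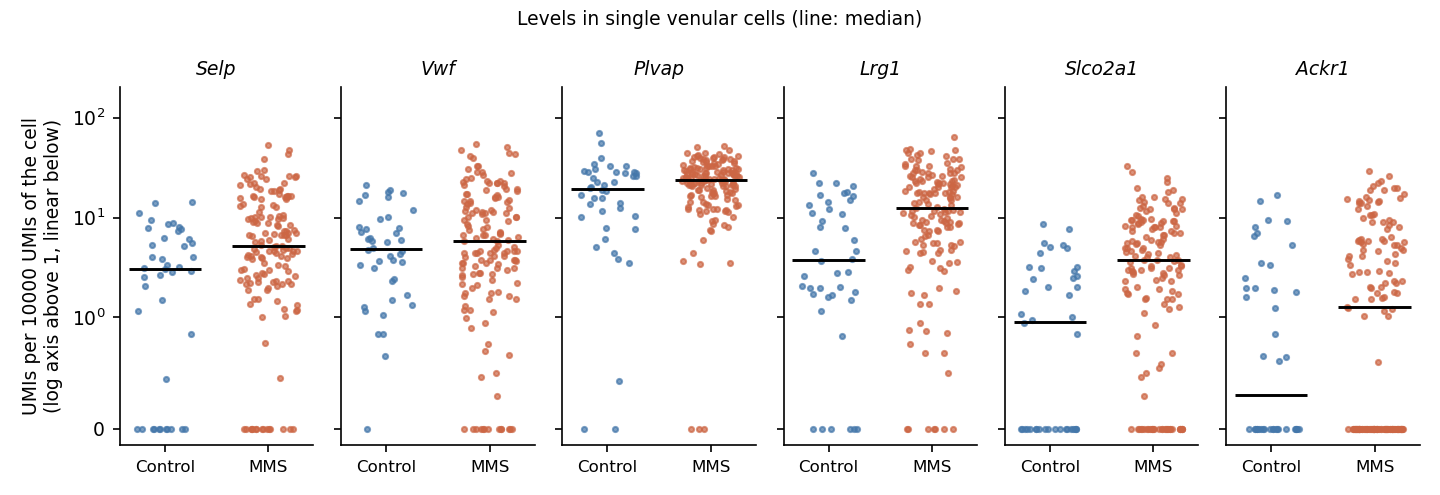
UMIs per 10000 in each venular cell (symmetric log axis) for 6 genes in the control and MMS libraries; each point is 1 cell of 1 library, so the points are not replicates. The 2 libraries overlap for every gene, and the median cell is higher in MMS for each of the 6.

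The limit of 2 UMIs of Selp and Vwf cut through a gradient. Cells that met all other conditions and had 1 such UMI (24 in control, 30 in MMS) held Plvap at 905 and 1518 CPM, and those just inside with 2 (10 and 10) at 1248 and 1624. Lrg1 was at 45.9 and 484 CPM just outside and at 142 and 169 just inside; Ackr1 was at 0 in both libraries outside and at 8.9 and 28.2 inside. Cells with none of these UMIs (1594 and 304) held Plvap at 141 and 564 CPM, and cells with 10 or more (18 and 91) at 2174 and 2609. Lrg1 in those with 10 or more reached 1004 and 1869 CPM. Of the venular cells, 30 in control and 121 in MMS held both Selp and Vwf, 11 and 15 held Vwf alone and 1 and 13 Selp alone. Cells with Vwf alone had Lrg1 at 73.7 and 410 CPM, against 879.5 and 1739 in those with both. The limit on arterial genes also kept out 21 control and 82 MMS cells that met the other conditions and held venular markers. Plvap was at 1468 and 1344 CPM in the cells kept out, below venular cells in both libraries. Their Ackr1 was at 414 and 166 CPM, against 160.3 and 442 in venular cells, so higher in control and lower in MMS. The arterial marker Gja5 had a UMI in 38.1% and 20.7% of the cells kept out, against none of the control and 0.671% of the MMS venular cells. The mural gene Rgs5 was at 695 and 933 CPM, against 535 and 90.01 in venular cells.

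Venular cells made up a larger share of the endothelium in the MMS library. They were 2.06% of 2041 blood endothelial cells in control (exact Clopper-Pearson interval 1.49 to 2.77%) and 18.3% of 813 in MMS (15.7 to 21.2%), or 0.594% and 3.85% of all kept cells. Capillary-type cells were 74.3% and 36.4% and arterial-type cells 17.6% and 30.5% of blood endothelium. When every cell was thinned to 2000 UMIs, leaving out 482 control and 209 MMS kept cells that were shallower, the venular share was 1.61% (1.07 to 2.34%) of 1674 and 17.8% (15.1 to 20.7%) of 753. The class is set by Selp and Vwf, and Selp itself was at 356 CPM in control and 931 in MMS venular cells, and at 0.16 and 3.82 in capillary-type cells, which may hold at most 1 UMI of the pair. More venular cells and more Selp or Vwf per endothelial cell therefore cannot be told apart.

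**Figure D3:**
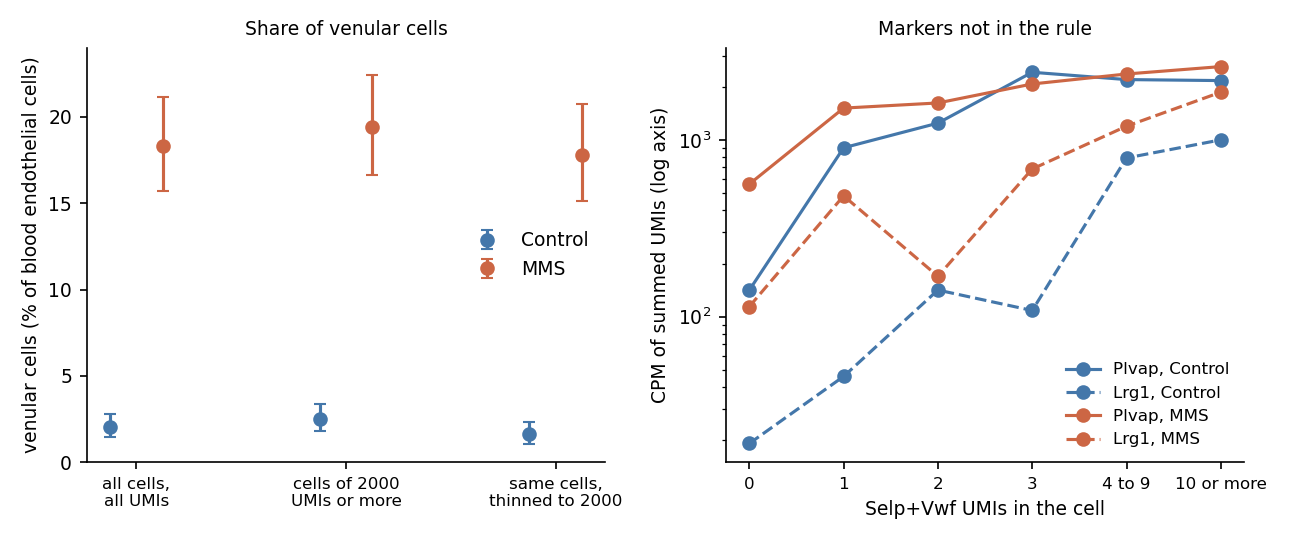
Left, venular share of blood endothelial cells (percent, with exact 95% intervals for counting error) in each library, over all such cells, over those with at least 2000 UMIs, and after thinning to 2000 UMIs. Right, Plvap and Lrg1 (CPM, log axis) by the number of Selp and Vwf UMIs in the cell; the share is higher in MMS in all 3 versions, and both genes are higher in cells with 10 or more such UMIs than in cells with none.

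Without the genes of the rule, the venular cells fell mostly into 2 of 18 clusters of blood endothelial cells. Cluster 2, led by Nt5e, Ackr1, Pcdh7 and Sele, held 23 control and 84 MMS venular cells, 56.0% of the 191. Cluster 14, led by Tmem252, Cxcl16, Lhx6, Enpp6 and Lrg1, held 6 and 41 (24.6%). The other 13 and 24 lay elsewhere, among them 4 and 1 in cluster 11, which was led by the mural genes Vtn and Kcnj8, and 4 and 14 in cluster 10, led by Esm1 and Col13a1. Venular cells were 74.2% of control and 78.5% of MMS cells in cluster 2, but 10.7% and 28.9% in cluster 14. At a coarser resolution 1 cluster took 89.0% of the venular cells, which were 23.5% of its control and 46.5% of its MMS cells.

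The cells in cluster 14 were less venular and more capillary in their genes. Venular cells in cluster 2 held Ackr1 at 276 CPM in control and 721 in MMS, and those in cluster 14 at 16.4 and 79.0. Gpihbp1 was at 352 and 238 CPM in cluster 2 and at 1908 and 965 in cluster 14, and Cldn5 at 107 and 108 against 1809 and 511. Nt5e, which makes adenosine on the cell surface, was at 143 and 115 CPM in cluster 2 and at 0 and 4.05 in cluster 14. The basement membrane gene Col4a1 had its lowest level in cluster 2 (419 and 749 CPM) and stood at 839 and 1668 in cluster 14. These genes took part in the clustering, so the levels describe the clusters.

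Between the libraries, 323 of 10239 genes were at least 2-fold higher in MMS than in control venular cells with the interval on 1 side of equality (3.15%) and 293 lower (2.86%), with a median log2 ratio of 0.08 over all genes. The control side holds 42 cells, and single cells could carry a gene. With the cell richest in each gene left out of each library, a version chosen after seeing the data, 480 genes were higher (4.95%) and 158 lower (1.63%) of 9703, and the median moved to 0.22, since 1 of 42 cells weighs more than 1 of 149.

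Genes of venous identity were higher in MMS. Of 15 tested, 6 were past 2-fold higher and none lower, with a median log2 ratio of 0.67; without the limit on arterial genes the list median of venous identity was 0.19. Slco2a1 went from 160.3 to 530.3 CPM, a log2 ratio of 1.73 (1.37 to 2.10), and stayed past 2-fold over 21 other versions of the analysis (1.43 to 2.0). Lrg1 went from 667 to 1574 CPM, a log2 ratio of 1.24 (1.06 to 1.42), but ranged from 0.64 to 1.30 over the other versions. Ackr1 went from 160.3 to 442 CPM, a log2 ratio of 1.46 (1.10 to 1.84), with a range of 0.19 to 1.82; it was lowest when the limit on arterial genes was dropped and 0.51 after thinning. The apelin receptor Aplnr went from 389 to 811 CPM (log2 ratio 1.06, 0.83 to 1.30), and the enzymes Bst1 from 16.5 to 59.7 and Cd38 from 37.7 to 79.2 CPM also passed. On this list Aplnr was at about the same level in capillary-type cells (365 CPM in control, 759 in MMS), and Cd38 was higher there (156 and 155) and was under 2-fold in 9 of 20 other versions. Plvap was 0.35 higher on the log2 scale (0.24 to 0.46) and Nr2f2 0.05, neither past 2-fold. The venous list had a median of 1.13 in capillary-type and 0.93 in arterial-type cells, where Slco2a1 differed by 3.07 and 2.53 and Lrg1 by 3.05 and 1.68, so these genes were higher in MMS in all 3 classes. Over all genes, 7.43% were past 2-fold higher and 3.05% lower in capillary-type cells, and 6.68% and 2.31% in arterial-type cells.

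Of 22 Weibel-Palade and coagulation genes, 3 were past 2-fold higher and 1 lower (median 0.50). Selp, on which the cells were chosen, was 1.39 higher on the log2 scale. Entpd1, an enzyme that breaks down ATP and ADP at the vessel wall, went from 146 to 399 CPM (log2 ratio 1.45, 1.07 to 1.85). Plat, tissue plasminogen activator, had 3 control and 62 MMS UMIs (log2 ratio 2.25, 0.63 to 4.57). Edn1, the endothelin precursor, went the other way, from 323 to 81.9 CPM (log2 ratio -1.98, -2.32 to -1.64); 1 control cell held 39.4% of its UMIs, and without the richest cells the ratio was -1.49. The endothelin-converting enzyme Ece1 went from 472 to 953 CPM (log2 ratio 1.02, 0.80 to 1.23), and was under 2-fold in 12 of 21 other versions. Vwf was 0.68 higher and the anticoagulant receptor Thbd 0.30 lower on the log2 scale, neither past 2-fold.

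The count of leukocyte adhesion molecules past 2-fold differed when the richest cells were left out. Of 19 tested, 1 was past 2-fold higher, Selp, on which the cells were chosen (median of the list 0.38). The 1 past 2-fold lower, Aoc3, had 7 UMIs in control and 8 in MMS. Cdh5 and Pecam1, also genes of the rule, are on this list. Without the richest cells 4 of 18 were higher, Selp, Sele, Chst2 and Mcam, and none lower. Sele went from 87.2 to 137 CPM (log2 ratio 0.65, 0.15 to 1.19); 1 control cell held 40.5% of its UMIs, and without the richest cells the ratio was 1.17. Icam1 went from 332 to 459.8 CPM (log2 ratio 0.47) and Vcam1 from 249.9 to 144 (log2 ratio -0.79, -1.12 to -0.45). The selectin ligand enzyme Chst2 was 0.96 and the adhesion gene Mcam 0.90 higher on the log2 scale. Glycam1, a selectin ligand of lymph node venules, had 0 UMIs in control and 12 in MMS.

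Several chemokines were lower in MMS venular cells. Of 27 tested chemokine, cytokine and receptor genes 2 were past 2-fold higher, Ackr1 and Il6, and 7 lower: Cxcl1, Cxcl9, Cxcl10, Cxcl16, Cx3cl1, Ccl2 and Ccl11 (median -0.14). Cxcl10, a ligand of the T cell receptor Cxcr3 that interferon induces, went from 116 to 16.3 CPM (log2 ratio -2.83, -3.53 to -2.14) and stayed past 2-fold lower in 20 other versions, while in arterial-type cells it was 3.05 higher. Cxcl9, of the same receptor, went from 141 to 47.2 CPM, and Cxcl16 from 113 to 50.4. Cx3cl1, a membrane-bound chemokine, went from 58.9 to 18.4 CPM (log2 ratio -1.68, -2.46 to -0.87) and was 1.39 higher after thinning. Ccl2 and Ccl11 rested on 10 and 18 control UMIs, of which 1 cell held 80.0% and 88.9%. Il6 went from 23.6 to 73.2 CPM, with 90.0% of its 10 control UMIs in 1 cell, and from 4.76% to 18.1% of cells with a UMI. Without the richest cells, 3 genes of the list were higher and 3 lower. Of 18 genes of NF-kB feedback none was past 2-fold in either direction (median 0.11).

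**Figure D4:**
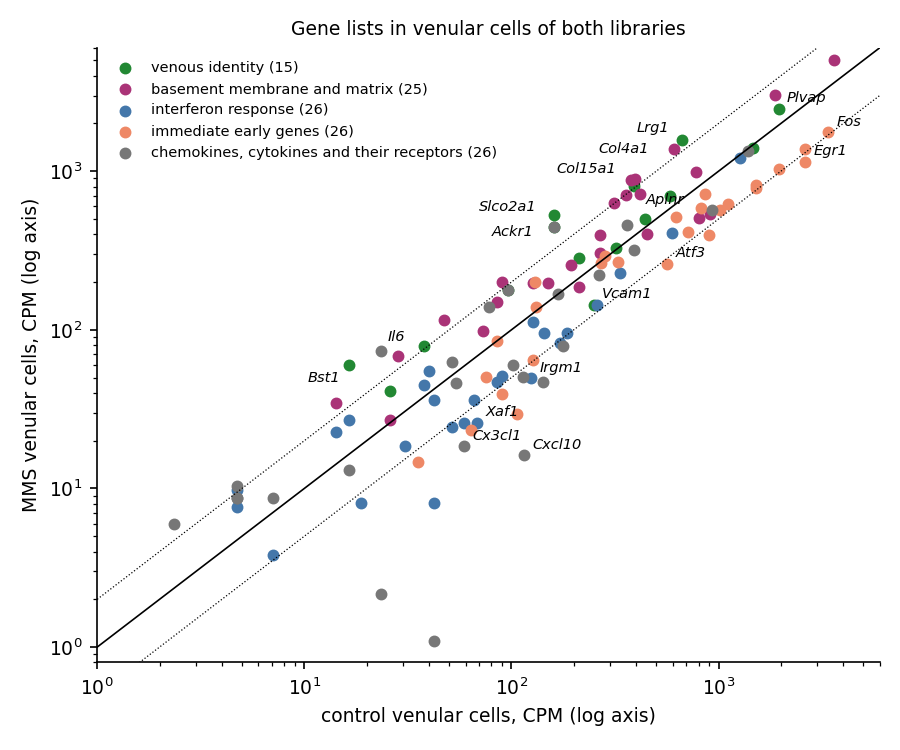
Control against MMS level (CPM, log axes) in venular cells for the genes of 5 lists; the lines mark equality and 2-fold, each point is 1 gene, and genes with no UMI in 1 library are not drawn. Slco2a1, Lrg1, Ackr1, Col4a1 and Col4a2 lie above the upper 2-fold line, and Cxcl10 below the lower one.

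Basement membrane genes showed the largest one-sided count. Of 26 tested, 9 were past 2-fold higher in MMS and none lower, with a median of 0.66, and without the richest cells 9 of 25 were. The type IV collagen chains that build the vessel's basement membrane went from 606 to 1387 CPM for Col4a1 (log2 ratio 1.19, 1.01 to 1.39) and from 379.6 to 886 for Col4a2 (1.22). Col15a1 went from 396 to 894 CPM (1.17) and Col18a1, the source of endostatin, from 89.6 to 201 (1.16). The laminin chain Lamb1 and the linker Nid2 were both 1.29 higher, the protease Adamts4 1.27 and Igfbp4 1.01; Lox had 0 control UMIs, and 1 MMS cell held 91.0% of its UMIs. Col18a1, Lamb1 and Nid2 stayed past 2-fold in all other versions that could test them, while Igfbp4 was under it in 14 of 21. Perlecan, Hspg2, was 0.98 higher, and Timp3 and Tinagl1 were 0.76 and 0.66 lower. Fibroblast markers were higher in MMS venular cells, as given above, and without the cells that held at least 1% of their UMIs in them (1 control, 3 MMS) the list's median was 0.60 and Col4a1 was 1.16 higher. In capillary-type cells, where they summed to 2053 CPM in control and 24102 in MMS, the list's median was 0.54 and Col4a1 was 0.52 higher.

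Interferon and immediate early genes were lower in MMS, and antigen presentation genes were lower in most versions. Of 26 interferon response genes 6 were past 2-fold lower and none past 2-fold higher (median -0.77), with 20 ratios under 0 and 6 above. Among those past 2-fold were the GTPase Irgm1 (125 to 49.3 CPM, log2 ratio -1.34) and Xaf1 (68.4 to 26, -1.39). Without the richest cells 4 of 25 were past 2-fold lower (median -0.48), with 17 ratios under 0 and 8 above. The interferon list's medians were -0.85 in capillary-type and -1.04 in arterial-type cells. Of 12 antigen presentation genes 5 were lower (median -0.43). All 5 act in MHC class II presentation, a pathway mainly of immune cells: Cd74, whose control UMIs were 48.7% in 1 cell, H2-Aa, H2-Ab1, H2-Eb1 and H2-DMa. Without the richest cells 2 of 10 were lower, Cd74 and H2-Eb1 (median -0.32), and after thinning the list median of antigen presentation was 0.104, with Cd74, H2-Aa and H2-Eb1 higher in MMS. The class I genes H2-K1 and B2m were both 0.43 lower on the log2 scale.

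Of 26 immediate early genes, transcribed within minutes of many stimuli, 7 were past 2-fold lower and none higher (median -0.87). Egr1 went from 2624 to 1147 CPM (log2 ratio -1.19) and the antiproliferative gene Btg2 from 903 to 394 (-1.20), and Fos from 3381 to 1766 (-0.94), just under 2-fold. The list was also lower in capillary-type and arterial-type cells, at medians of -0.45 and -0.64. The shear-responsive factors Klf2 (1514 to 782 CPM, -0.95) and Klf4 (1106 to 618, -0.84) were lower to a similar degree. Both are on the immediate early list and so share in its median. They are also on the vascular tone and shear list, where 2 of 16 genes were past 2-fold higher and 3 lower (median 0.34).

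Junction, caveolar and metabolic genes differed less. Of 21 caveolar, fenestral and junction genes 1 was past 2-fold, Cldn5 at 502 and 251 CPM (log2 ratio -1.0, interval -1.24 to -0.76), and it was under 2-fold or in the other direction in 10 of 21 other versions, 0.88 higher among cells with at least 5 Selp and Vwf UMIs. Cav1 was 0.76 lower and the water channel Aqp1 0.79 higher. Of 14 fatty acid handling genes 3 were past 2-fold lower (median -0.12): the glycerol channel Aqp7 (118 to 40.7 CPM, -1.54), the transcription factor Tcf15 (278 to 102, -1.44) and the lipase inhibitor Angptl4 (215 to 56.9, -1.91), each in every other version that could test it, while Fabp4 (23061 and 22231 CPM) and Cd36 differed by 0.05 and 0.03. Glycolysis and hypoxia genes had 1 of 18 past 2-fold, Adm, which was lower, with a median of 0.04.

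Growth factor and signalling lists were mixed. Of 22 VEGF, angiopoietin and apelin genes 2 were past 2-fold higher, Apln (21.2 to 65.6 CPM, 1.63) and its receptor Aplnr, and 2 lower, Esm1 and Adm, whose control UMIs lay wholly or to 94.7% in 1 cell. Without that cell Adm was 1.30 higher, and no gene of the list was lower. Of 20 TGF-beta and BMP genes 1 was higher, Lrg1, and 3 lower, Bmp2, Bmp4 and Bmp6 (median 0.26), with the secreted Bmp4 at 179 and 73.2 CPM (-1.29, -1.71 to -0.87), 0.50 higher in MMS after thinning, and 2.65 higher in arterial-type cells. Of 13 Notch genes 1 was higher, the fringe enzyme Mfng (51.9 to 105 CPM, 1.02), and 1 lower, Notch3, a mural gene (24 and 6 UMIs, -4.12). Of 6 prostaglandin genes only Slco2a1 passed; cyclooxygenase Ptgs1 was at 243 and 288 CPM. Cell cycle genes had 3 of 11 higher (median 0.79): Hmgb2, Stmn1 and Mki67, the last with 69.0% of its 29 MMS UMIs in 1 cell. Without the richest cells 1 of 9 was higher, Hmgb2 was under 2-fold in 11 of 21 other versions, and Stmn1 was at -0.31 after thinning. Acute phase and Stat3 target genes had 2 of 13 higher, Lrg1 and Lcn2 (median 0.01), and 14 housekeeping genes had none past 2-fold (median 0.07).

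Contractile and mesenchymal genes were lower in MMS venular cells, with 9 of 26 past 2-fold lower and 1 higher (median -0.55). Without the richest cells 6 of 25 were lower and 2 higher (median -0.29), and without the limit on arterial genes the list median of endothelial activation and mesenchymal genes was 0.0507. Acta2 went from 134 to 24.4 CPM (log2 ratio -2.46) and the myosin light chain Myl9 from 163 to 13.6 (-3.59). Summed mural markers, 1811 CPM in control and 891 in MMS, moved the same way, and 9 of 42 control and 19 of 149 MMS cells had at least 0.2% of their UMIs from them; Acta2 was itself on that list. The 1 gene that was higher, Fn1, had 77.2% of its control UMIs and 41.3% of its MMS UMIs in 1 cell each, and was 1.33 lower without called doublets. In capillary-type and arterial-type cells the list's medians were 0.45 and 0.69.

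**Figure D5:**
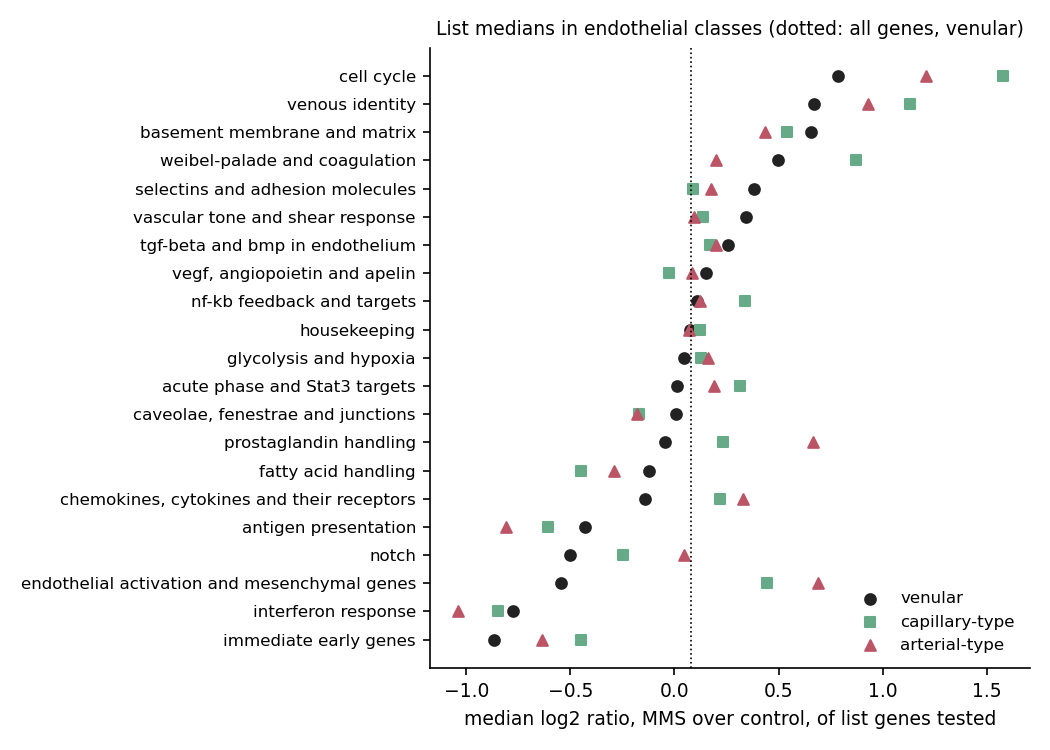
Median log2 ratio of MMS over control for 21 gene lists in venular, capillary-type and arterial-type cells; each point is the median over a list's tested genes in 1 class, from 1 library per group. Venous identity and basement membrane genes lie above 0 in all 3 classes and interferon, antigen presentation and immediate early genes below 0, while the activation and mesenchymal list is below 0 in venular cells and above 0 in the other 2 classes.

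Of the 12 genes with the highest ratios, most had few control UMIs. The activin subunit gene Inhbb had 1 control and 61 MMS UMIs (log2 ratio 3.81, 1.28 to 9.14). Cmah, a sialic acid hydroxylase, had 0 and 145 UMIs and was found in 33.6% of MMS venular cells. Its log2 ratio was 3.47 with the control set at a floor of 3 UMIs, with a lower interval limit of 3.16 and no upper limit. The clock repressor Nr1d1 had 3 and 87 UMIs (2.74), and the matrix protein Olfml2a 5 and 129 (2.57), with 3.01 in capillary-type cells. Others among them were Smim13, Zfp512, Slc26a2, Plat, Tnk2, Tbc1d4 and Gpr1.

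The 12 lowest ratios held genes of other cells and genes carried by single cells. Pf4 is a platelet gene, and Rgs5 (535 to 90.0 CPM, -2.57), Acta2 and Myl9 are mural. Fst, an activin antagonist, had 84 UMIs in control and none in MMS, with 66.7% of its control UMIs in 1 cell; Nrgn had 76% and Itm2a 89.4% in 1 cell, and Itm2a was at -0.29 without the richest cells. Timp4 (226 to 44.5 CPM, -2.35), a metalloprotease inhibitor, Depp1 (149 to 31.5, -2.24), a target of FOXO factors, and Cd24a (-2.09) stayed past 2-fold lower in all 21 other versions, as did Edn1 and Angptl4.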

How the data were processed

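The authors' deposited matrices hold UMI counts per gene and cell barcode, from Cell Ranger 5.0.0 per the file headers and 2.0.0 per the submitters' processing notes, which name mouse build mm10; which version made the counts was not settled. Counts were read as deposited and not normalized beforehand. Gene coordinates are of GRCm38 and promoters of RefSeq GRCm38.p6.

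Barcodes were kept and classed by the thresholds given above. CPM values are summed UMIs of a class in 1 library, scaled by the class total. Ratios of MMS over control carry exact conditional binomial 95% intervals. Genes with 10 or more UMIs in all entered the comparison, and a gene was counted as past 2-fold when the interval also lay on 1 side of equality; a 0 took a floor of 3 UMIs. Intervals and floors cover counting error only. The members and gene lists were chosen with earlier results of these data known.

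Named genes were the 12 highest and 12 lowest ratios among genes with at least 50 UMIs, found in at least 10% of venular cells in the higher library and at 0.5 times or more of its level over all kept cells; the 15 highest over capillary-type cells with at least 50 UMIs in each library and 20% of cells; the 5 markers; and list genes past 2-fold or defining a list. Mitochondrial, ribosomal, haemoglobin, unnamed-model and sex-linked genes and the genes of the rule were left out of the first 2 sets, and 1 gene is not reported here.

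Doublets were called with scrublet at an assumed rate of 0.06 and kept, with a version without them. Blood endothelial cells were clustered by Leiden (scanpy 1.11.5, 2000 variable genes, 30 components, 15 neighbours, resolution 1) without the genes of the rule. Alternatives were other Selp and Vwf limits, collagen and arterial limits, cell and gene filters, thinning, doublets and cells rich in mural, fibroblast or platelet markers left out, equal weights per cell and depth bins. Python 3.11.15, numpy 2.4.6, scipy 1.17.1 and pandas 2.3.3 were used, and the ratio code was tested on simulated data with 200 changed genes.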

Additional observations from a re-analysis of the deposited data

Results flagged for a closer look

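For 12 genes the ratio of MMS over control went in opposite directions, past 2-fold in both, in venular cells and in another endothelial class. All 12 are among the named genes and were lower in venular cells, and a count over all genes is not given here. Over all genes tested, 2.86% were past 2-fold lower in venular cells. In capillary-type cells 7.43% and in arterial-type cells 6.68% were past 2-fold higher. The differences between classes were not tested, since each class came from the same 1 library per group. Chemokine genes were among them: Cxcl10 at -2.83 on the log2 scale in venular and 3.05 in arterial-type cells, Ccl11 at -5.29 and 2.24, Ccl2 at -3.44 in venular and 2.39 in capillary-type cells, and Cx3cl1 at -1.68 and 1.21. Bmp4 was at -1.29 in venular and 2.65 in arterial-type cells. Esm1 was at -1.44 in venular, 3.22 in capillary-type and 1.91 in arterial-type cells, with all of its control venular UMIs in 1 cell. The contractile genes Acta2, Myl9 and Tpm2 were at -2.46, -3.59 and -2.89 in venular and 1.21, 1.03 and 1.5 in arterial-type cells. Summed mural markers were at 1811 CPM in control and 891 in MMS venular cells and at 2533 and 4122 in arterial-type cells, where fibroblast markers were at 2226 and 25532; their part in these ratios was not tested across classes. Ccn2 was at -1.08 in venular, 1.14 in capillary-type and 1.52 in arterial-type cells, and Anxa1 at -1.03, 1.23 and 1.03. Itm2a was at -3.21 in venular and 1.55 in capillary-type cells, and at -0.29 in venular cells without the richest cell of each library. In other versions of the analysis the venular ratio reached 0.92 for Anxa1, 0.50 for Bmp4, 1.39 for Cx3cl1, 1.48 for Esm1, 1.70 for Itm2a, 0.47 for Tpm2 and 0.66 for Ccl2, so the opposite direction did not hold there; Acta2 and Ccn2 stayed lower but fell under 2-fold in 4 and 5 of 21 versions. Cxcl10, Ccl11 and Myl9 stayed past 2-fold lower in every version that could test them. Of 21 versions, 20 could test Cxcl10 and Myl9, but only 15 could test Ccl11. Most control UMIs of Ccl11 lay in 1 cell, as given above, so its ratio rests on that cell.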

How the results depend on the processing

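No paired analysis was possible because each group has 1 library. Over the alternatives, some of them chosen after seeing the data, the difference in venular share (16.27 percentage points of blood endothelial cells, 3.26 of kept cells) moved past its interval only without the limit on arterial genes, to 25.3 and 5.08 points; that version had 544 genes higher and 5 lists, against 9, above the median of all genes. The count of genes lower was 194 with at least 3 Selp and Vwf UMIs, 179 with at least 5, 140 in the leading cluster, 158 without the richest cells, 127 at a minimum of 50 UMIs and 68 after thinning, where 82 were higher and 150 passed in all. The total was 389 in the leading cluster and 370 at 50 UMIs. Calls that were higher made up 52.4% in the analysis as reported, 64.0% in the leading cluster and 65.7% at 50 UMIs. The largest cluster took 89.0% of venular cells at resolution 0.5, against 56.0%. The leading cluster and the richest-cell versions were chosen after seeing the data.

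Directions turned for these log2 ratios; the cause was not tested. After thinning: the antigen presentation list median 0.104, Tbc1d4 -0.31, Anxa1 0.92, Bmp4 0.50, Cd74 1.03, Cx3cl1 1.39, Cxcl1 0.15, H2-Aa 0.50, H2-Eb1 0.10, Hspa1a and Hspa1b 0.0107 each, Ifi27l2a 0.27 and Stmn1 -0.31. With at least 3 Selp and Vwf UMIs, Nrgn 0.81; with at least 5, Nrgn 0.63, Itm2a 1.70, Cldn5 0.88, Rsad2 1.38 and Tpm2 0.47; with both genes required, Nrgn 0.91, Itm2a 0.16 and Rsad2 2.30. In the leading cluster, Nrgn 0.96, Itm2a 0.96, Cldn5 0.0109, Cxcl1 1.27 and Rsad2 1.25. Without the arterial limit, Anxa1 0.0507, Ccl2 0.66, Cyp1b1 -0.53, Esm1 0.12, Postn 0.85 and the mesenchymal list's median 0.0507. Without cells rich in mural genes, Fn1 -0.17 and Postn 0.78; without doublets, Fn1 -1.33; with collagen under 0.1%, Cxcl1 0.16; without the richest cells, Adm 1.30; with equal weights per cell, Esm1 0.16; at matched depth, Esm1 1.48. Of the named genes' ratios over all versions together, 1744 kept direction and side of the threshold, 203 fell under 2-fold, 22 moved in size and 38 turned. Versions differed in this. After thinning alone, 25 kept direction and side, 25 fell under 2-fold, 4 moved in size and 12 turned. Depth bins with 10 cells of each library were not run, since no bin had them; bins with 5 were used. The 42 control cells limit all ratios.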
